A study of Mus musculus with 6 samples.

Results

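The HoxA cluster is a run of homeobox genes on mouse chromosome 6 whose products are DNA-binding transcription factors. The 9 genes described here are Hoxa2, Hoxa3, Hoxa4, Hoxa5, Hoxa6, Hoxa7, Hoxa9, Hoxa10 and Hoxa11. They were taken by symbol from a table of 24091 genes, by a rule that uses no measured value, and were read in their order along the chromosome. In the build mm10 they span chr6:52162417-52245810, or 83.4 kb, and all lie on the minus strand.

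Hox genes were first known for setting position along the body axis of the embryo, and within a cluster they tend to be switched on in the order in which they lie. In blood formation the middle and 5′ genes of the HoxA cluster are active in stem cells and early progenitors, and they are shut down as cells mature. HOXA9 binds DNA with cofactors of the TALE class, the PBX and MEIS proteins, and it sustains both stem cells and leukaemias driven by fusions of the histone methyltransferase MLL.

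RNA was measured in hematopoietic stem cells, the marrow cells that renew all blood lineages, with the sort phenotype lineage-Sca-1+c-Kit+CD150+CD48-. The cells carry the label wt, and the labels give no strain or sex, no transgene and no treatment. The aged group is 3 libraries from mice of 20 months (aged 1 to aged 3), and the young group is 3 libraries from mice of 2 months (young 4 to young 6). Cells of 4 mice went into the aged pools and of 30 mice into the young ones. Whether these numbers hold per sample or per group is not stated, so each p measures only how much the pools vary, which can be technical. The series title concerns miR-126 and the remodelling of vessels in ageing bone marrow. The comparison of ages asked which RNAs differ between old and young stem cells.

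Total counts ran from 16452829 in young 4 to 21918658 in young 6, and a count of 0 allows a level of up to 0.132 to 0.239 CPM at 3 counts per library. CPM are counts relative to library size, scaled between libraries by the TMM method. The TMM factor was 0.765 for young 4 and 1.04 to 1.08 elsewhere, so scaling raised the CPM of young 4 against the other libraries. Young 4 and aged 2 stood apart from the other libraries: Actb took 4.06% of the counts of young 4, against 0.555% to 1.36% elsewhere, and aged 2 had counts in 20918 genes, against 16084 to 17057. The sort genes Kit, Slamf1 and Ly6a were detected in all 6 libraries, at 28.9 CPM or more each. Kit and Slamf1 were not called between the ages by edgeR (adjusted p = 0.305 and 0.0891). Ly6a rose 3.04-fold in aged cells (edgeR, adjusted p = 0.0435). Cd48, the marker the sort excludes, fell 7.72-fold (edgeR, adjusted p = 0.0345), from 8.59 to 14.5 CPM in young to 0.511 to 2.54 CPM in aged libraries. Procr, which is not part of the sort phenotype, rose 2.82-fold (edgeR, adjusted p = 0.0106). With 1 library left out, the 3 calls did not hold without young 5 (adjusted p = 0.108 for Ly6a, 0.0653 for Procr and 0.0912 for Cd48) or young 6 (0.109, 0.0526 and 0.0828). By edgeR, those of Ly6a and Cd48 did not hold without aged 2 (adjusted p = 0.108 and 0.107) or aged 3 (0.071 and 0.0854). Without aged 1, Ly6a had an adjusted p of 0.0797, and the log2 fold change of Cd48 was -3.72, against -2.95. Genes of other marrow cells were also detected. The summed CPM of 13 stromal genes was 45.4 to 57.7 in aged libraries and 46.8 to 126 in young ones, and 1 of 7 tested, Cxcl12, was called, lower in aged cells (edgeR, adjusted p = 0.0486). Without 1 library it was past the threshold when young 4 was left out (adjusted p = 0.032), and at 0.1 (aged 1) to 0.132 (aged 2) in the other 5 fits; it was also lost with upper-quartile scaling (0.0564), no scaling (0.0811) and robust empirical Bayes (0.0523). Young 6 stood apart in these genes, with 984 counts of Col1a1, against 5 to 49 elsewhere, and 105 of Bglap, against 0 to 16. Other stromal genes went the opposite way, and of the 7 tested, 4 log2 fold changes were above 0 and 3 below. Pdgfrb (2.94 to 7.19 against 1.43 to 2.63 CPM) and Lepr (0.743 to 1.34 against 0.199 to 0.701 CPM) were higher in every aged library. Neither was called (edgeR, adjusted p = 0.146 and 0.238). Prrx1, a mesenchymal gene, had 0 counts in 4 libraries and at most 5 in the other 2. For 9 macrophage genes the sums were 38.8 to 41.9 and 46 to 77.5 CPM, and for 8 endothelial genes, several of which stem cells also express, 387 to 475 and 264 to 328 CPM. Cdh5, the endothelial cadherin, had 1 to 29 counts per library. Sums of 5 platelet and megakaryocyte genes were 211 to 1040 CPM in aged libraries and 680 to 1100 CPM in young ones, and those of 5 erythroid genes were 74.9 to 147 and 86.2 to 235 CPM. The part of such cells in the results below was not tested. In bulk samples fewer cells of a type and less RNA per cell cannot be told apart.

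Stem cells of both ages expressed a HoxA profile dominated by Hoxa9, Hoxa7 and Hoxa10, with little of the 3′ members and almost no Hoxa11. No member passed the test between ages. Hoxa10, Hoxa3 and Hoxa6 were higher in every aged than in every young library, by 1.4-fold, 2.14-fold and 2.1-fold, and none of the 3 reached an adjusted p of 0.05. Such separation is common: 19% of all tested genes showed it with aged higher and 36.6% in either direction. Summed over the 9 genes, the cluster gave 232, 269 and 303 CPM in aged 1 to aged 3 and 284, 246 and 246 CPM in young 4 to young 6, and the ages overlapped. That young 4 was the highest young library here depended on its TMM factor of 0.765.

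By edgeR's quasi-likelihood test with Benjamini-Hochberg adjustment over 13413 genes, 0 of the 8 members with enough counts were called at an adjusted p under 0.05, where 5.76% of all tested genes were. The share of all tested genes called was 4.26% higher and 1.5% lower in aged cells. At an unadjusted p under 0.05, 3 members were higher and 0 were lower, against 13.9% and 11.1% of all tested genes, or 25.1% together. Ages that did not overlap were found for 3 of the 8, all with aged higher, against 19% of all tested genes in that direction and 36.6% in either. The log2 fold change, aged minus young, was positive for 6 members and negative for 2, with a median of 0.39, and it was positive for 52.7% of all tested genes, with a median of 0.04. The count of called members depended on the tool: DESeq2 called 2 and limma-voom with quality weights called the same 2, Hoxa3 and Hoxa10, where these tools called 16.3% and 30.5% of all genes. Limma-voom without weights called 0 members and 6.09% of all genes. With 1 library left out at a time, edgeR called 0 members in each of the 6 fits.

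**Figure D1:**
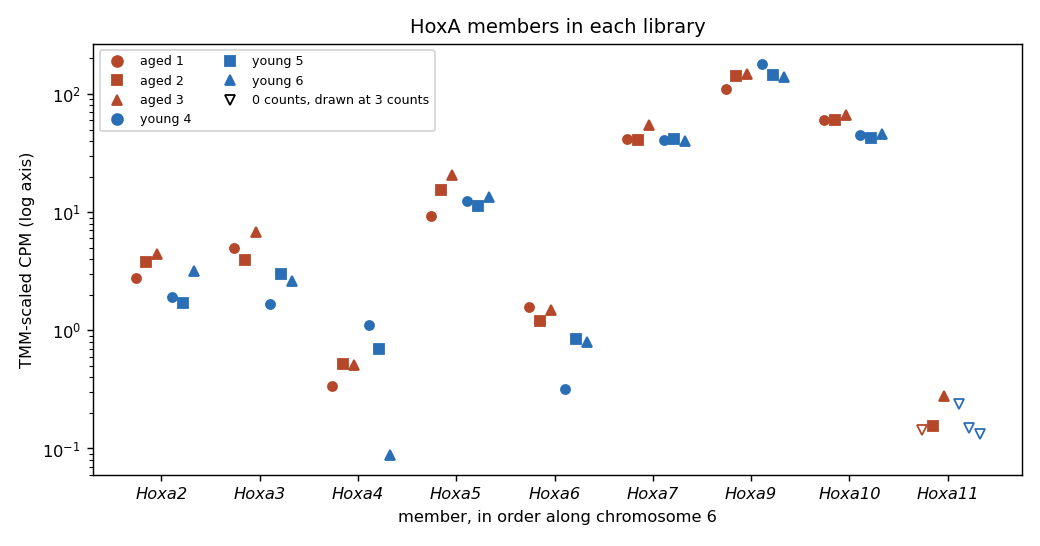
TMM-scaled CPM on a log axis for each of the 9 members, in order along chromosome 6, with 1 point per library (red aged, blue young) and open triangles for a count of 0, drawn at the level of 3 counts. Hoxa9 stands at 110 to 181 CPM, Hoxa10 separates the ages at 60.1 to 66 against 42.2 to 45.9 CPM, and Hoxa11 lies at the floor.

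Promoter sequence is shown for Hoxa9, the most abundant member, for Hoxa10, the abundant member that separated the ages, and for Hoxa2, whose window held the letters of a HOX site. RefSeq (GRCm38.p6) gave 9 windows for 8 members. Each window is the 250 bases before an annotated start, printed 5′ to 3′ on the minus strand, the strand of the genes. Capitals mark any match to TGATTNAT, the letters of a joint PBX and HOX site, or to CCATAAA, the letters of a CDX site, with both strands searched. The windows lie at chr6:52227371-52227620 for Hoxa9, at chr6:52234940-52235189 for the downstream start of Hoxa10 and at chr6:52164832-52165081 for Hoxa2. None of these 3 windows holds an annotated exon base in GENCODE M21.
Hoxa9 promoter: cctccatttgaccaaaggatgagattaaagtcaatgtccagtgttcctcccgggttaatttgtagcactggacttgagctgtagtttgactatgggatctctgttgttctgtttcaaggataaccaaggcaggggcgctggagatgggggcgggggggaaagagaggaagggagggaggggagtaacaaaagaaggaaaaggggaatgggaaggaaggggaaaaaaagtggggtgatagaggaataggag
Hoxa10 promoter: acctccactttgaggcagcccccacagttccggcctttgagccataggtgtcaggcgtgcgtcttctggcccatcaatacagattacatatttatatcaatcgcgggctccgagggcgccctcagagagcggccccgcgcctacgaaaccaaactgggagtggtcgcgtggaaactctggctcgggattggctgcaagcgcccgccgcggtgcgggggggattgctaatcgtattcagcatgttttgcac
Hoxa2 promoter: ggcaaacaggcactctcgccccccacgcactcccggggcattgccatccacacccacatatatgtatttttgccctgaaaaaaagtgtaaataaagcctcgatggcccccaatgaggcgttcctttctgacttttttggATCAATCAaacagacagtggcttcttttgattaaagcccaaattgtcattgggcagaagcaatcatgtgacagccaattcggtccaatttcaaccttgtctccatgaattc

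The single match among the 9 windows was ATCAATCA at position -111 from the start of Hoxa2, which is TGATTNAT read on the opposite strand. TGATTNAT occurs in 2.82% and CCATAAA in 2.43% of 32851 windows of this length. The members' windows held 46.4% (Hoxa2) to 65.2% (Hoxa6) G and C, against a median of 52.4% over all windows. The Hoxa10 window shown had 20 CpG pairs and that of Hoxa9 had 3. These are descriptions of the letters; no binding was measured.

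A microRNA gene, Mir196b, lies inside the cluster on the same strand, at chr6:52230081-52230165. All 85 bases of its hairpin fall in a Hoxa9 exon of GENCODE M21. Its products are shown because the 5p arm has seed matches in several members. The seed, bases 2 to 8, is in capitals.
miR-196b-5p: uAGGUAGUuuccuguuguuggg
miR-196b-3p: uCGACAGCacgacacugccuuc

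The match to the 5p seed, ACTACCT, was searched in the longest annotated 3′ untranslated region of each gene. It occurred in 6.1% of 21022 genes, and the 8-base form that ends in A, ACTACCTA, in 1.27%. Hoxa7 held 4 sites, all of the 8-base form, Hoxa5 held 1 of that form, and Hoxa4 and Hoxa9 held 1 site each of the 7-base form. Hoxa2, Hoxa3, Hoxa6, Hoxa10 and Hoxa11 held 0. The sites are printed with the match in capitals, and for Hoxa7 the first of 4 is given.
Hoxa4 site: aagcactggccatcgACTACCTt
Hoxa5 site: gatatttttattcaaACTACCTa
Hoxa7 site: aggcacagccaaaatACTACCTa
Hoxa9 site: gcaaaaggaaagaaaACTACCTt

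Per kilobase of gene length, the order of levels was Hoxa9, Hoxa7, Hoxa10, Hoxa5, then Hoxa2, Hoxa3 and Hoxa6, then Hoxa4 and Hoxa11. In young libraries Hoxa9 stood at 48.1 ± 6.96 CPM per kb, Hoxa7 at 20.2 ± 0.285, Hoxa10 at 14.1 ± 0.6 and Hoxa5 at 6.58 ± 0.593 (SD, n = 3). In aged libraries the values were 41.4 ± 6.37, 22.7 ± 3.66, 19.8 ± 1.04 and 8.1 ± 3.05 CPM per kb (SD, n = 3). The ranges of Hoxa7 and Hoxa10 overlapped in aged libraries, at 20.4 to 27 and 19.1 to 21 CPM per kb, and were apart in young ones. Hoxa2, Hoxa3 and Hoxa6 could not be ordered at either age: their means were 2.03 to 2.06 CPM per kb in aged libraries and 0.935 to 1.27 in young ones, with ranges that overlapped. Hoxa4 stood below them in aged libraries, at 0.298 ± 0.0673 CPM per kb (SD, n = 3), and in young ones it overlapped Hoxa3 and Hoxa6 and lay below Hoxa2, at 0.0575 to 0.729 against 0.955 to 1.78 CPM per kb. Without division by length, Hoxa10 stood above Hoxa7 and Hoxa3 above Hoxa2, and the other 5 members held their places.

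Hoxa9, whose loss impairs the renewal of stem cells, was the most abundant member in every library. It measured 110, 142 and 149 CPM in aged 1 to aged 3 and 181, 145 and 140 CPM in young 4 to young 6. The highest value was in young 4 and the lowest in aged 1, and aged 2 and aged 3 lay above young 6. The top place of young 4 depended on its TMM factor of 0.765. With no scaling between libraries the log2 fold change was -0.03. The fitted log2 fold change was -0.22, with a standard error of 0.19 and a 95% interval from -0.66 to 0.23 (edgeR, adjusted p = 0.485). In the alternatives tried the change ran from -0.39, with the GC content and length trend of each library removed, to -0.02, and none of these reached the threshold. In GENCODE M21 the Hoxa9 exons also hold the Mir196b hairpin, which makes up 1.52% of their length. The deposited interval of Hoxa9 does not reach that hairpin.

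Hoxa10, the 5′ neighbour of Hoxa9 and also a promoter of progenitor growth, measured 60.7, 60.1 and 66 CPM in aged 1 to aged 3 and 44.8, 42.2 and 45.9 CPM in young 4 to young 6. Every aged library was above every young one, and the spread within each age was small. The fitted difference was 0.49 on the log2 scale, or 1.4-fold, with a standard error of 0.14 and a 95% interval from 0.16 to 0.82 (edgeR, adjusted p = 0.0903). It lay between 0.45 and 0.51 whichever library was left out. DESeq2 called it at an adjusted p of 0.016 and limma-voom with quality weights at 0.00505. With the GC content and length trend of each library removed, the change was 0.14 with an adjusted p of 0.681 by edgeR, so the size of the difference depended on that correction. Hoxa10 shares no exon base with another annotated gene.

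Hoxa11, which acts in limb and uterus, was at the limit of detection. It had 0, 3 and 6 counts in aged 1 to aged 3 and 0 counts in each young library, where 0 allows up to 0.132 to 0.239 CPM. It was not tested and no fold is given. The antisense gene Hoxa11os covers 35% of its exon bases on the opposite strand, and the library kit does not mark strand.

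The ages overlapped in the amount of HoxA RNA but not in the shares that Hoxa9, Hoxa10, Hoxa3 and Hoxa6 took of it. The shares of a library add up to a fixed total, so these differences are not separate observations. In CPM, ages without overlap were found for 36.6% of all tested genes. Hoxa9 made up 47.6%, 52.9% and 49.1% of the HoxA counts in aged 1 to aged 3 and 63.8%, 59% and 56.8% in young 4 to young 6. Hoxa10 made up 26.1%, 22.4% and 21.8% in aged and 15.8%, 17.1% and 18.7% in young libraries. Every aged library was lower in the first share and higher in the second, while the shares of Hoxa7 and Hoxa5 overlapped between ages. Hoxa3 made up 1.48% to 2.23% in aged and 0.588% to 1.21% in young libraries, and Hoxa6 0.442% to 0.682% and 0.112% to 0.344%, both higher in every aged library. The ratio of Hoxa9 to Hoxa10 counts, which needs no scaling between libraries, was 1.82, 2.37 and 2.26 in aged 1 to aged 3 and 4.04, 3.44 and 3.05 in young 4 to young 6. Its means were 2.15 ± 0.29 and 3.51 ± 0.499 (SD, n = 3 each), a log2 difference of -0.71, with a two-sided exact permutation p of 0.1. That is the smallest p that 20 regroupings of 3 against 3 libraries can give, so this test cannot pass 0.05. Hoxa9 over Hoxa7 was 2.94 ± 0.449 in aged and 3.82 ± 0.563 in young libraries (SD, n = 3 each), with aged 2 at 3.45 just below young 6 at 3.47, and with the same exact permutation p of 0.1. Both ratios were chosen after the values had been seen. With the GC content and length trend removed, the fitted log2 changes of Hoxa9 and Hoxa10 were -0.39 and 0.14.

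**Figure D2:**
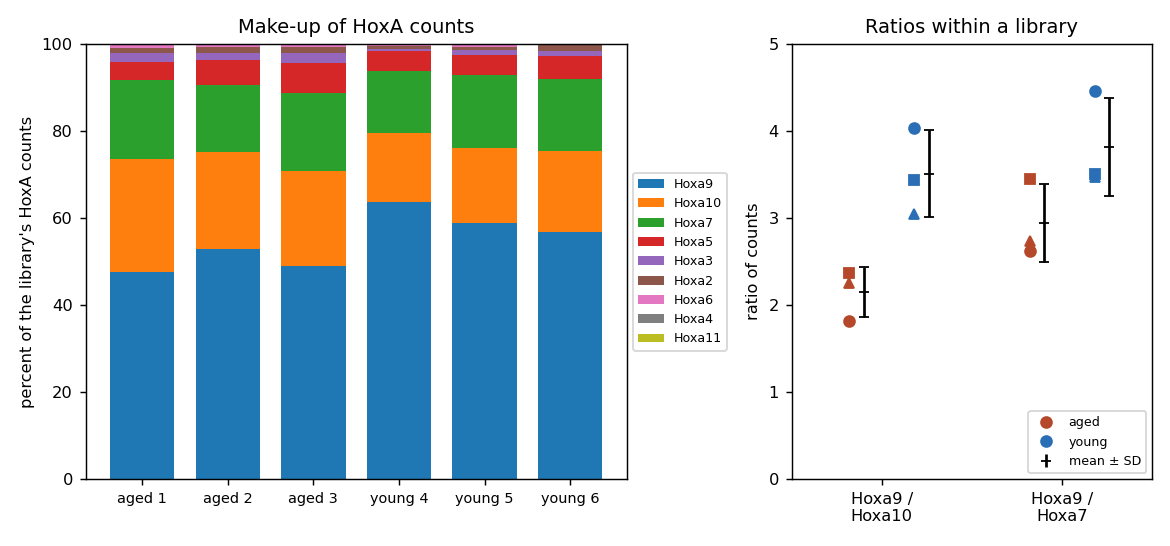
Left, the percent of each library's HoxA counts that each member took, as stacked bars for the 6 libraries. Right, the ratios of Hoxa9 to Hoxa10 and of Hoxa9 to Hoxa7 counts in each library (red aged, blue young; circles, squares and triangles are the libraries in order) with the mean and SD in black; Hoxa9 over Hoxa10 lies at 1.82 to 2.37 in aged and 3.05 to 4.04 in young libraries.

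Among the middle members, Hoxa7, a partner of Hoxa9 in MLL-driven leukaemia, measured 42, 41.2 and 54.4 CPM in aged 1 to aged 3 and 40.5, 41.4 and 40.2 CPM in young 4 to young 6. Aged 3 was high and the other 5 libraries lay within a narrow band. Its log2 fold change was 0.17, with a 95% interval from -0.22 to 0.57 (edgeR, adjusted p = 0.529). It was 0.03 without aged 3 and 0.01 with the GC content and length trend removed. In GENCODE M21, Hoxaas3, an antisense gene, covers 20.4% of the Hoxa7 exon bases, but the deposited intervals of Hoxa7 and Hoxaas3 do not overlap.

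Hoxa5, which acts in lung and in myeloid cells, measured 9.3, 15.5 and 20.7 CPM in aged 1 to aged 3 and 12.5, 11.2 and 13.4 CPM in young 4 to young 6. The aged libraries lay on both sides of the young ones. A log2 fold change of 0.3 was fitted, with a 95% interval from -0.42 to 1.02 (edgeR, adjusted p = 0.549). It was 0.01 without aged 3 and 0.55 without aged 1.

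Hoxa6, the neighbour of Hoxa7, was low and measured 1.58, 1.19 and 1.49 CPM in aged 1 to aged 3 and 0.318, 0.847 and 0.789 CPM in young 4 to young 6, from 23 to 33 and from 4 to 18 counts. All aged values were above all young ones. The fit gave a log2 fold change of 1.07, with a standard error of 0.42 and a 95% interval from 0.07 to 2.07 (edgeR, adjusted p = 0.178). In the alternatives it ran from 0.77 to 1.28, and 0 of them called it. The lowest value came both without young 4 and by limma-voom with quality weights.

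Hoxa4 was barely present, with 7, 10 and 11 counts in aged 1 to aged 3 and 14, 14 and 2 counts in young 4 to young 6. The young libraries spanned the aged ones, and in GENCODE M21 an antisense gene covers 16% of its exon bases. Its log2 fold change of -0.39 had a 95% interval from -2.21 to 1.43 (edgeR, adjusted p = 0.769), and its sign turned in 4 alternatives, among them 0.22 without young 4. At this depth no difference of Hoxa4 was detectable in either direction.

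The 3′ members, Hoxa2 and Hoxa3, pattern the hindbrain and pharyngeal arches of the embryo, and Hoxa3 is needed for the thymus. Hoxa3 measured 4.94, 3.97 and 6.78 CPM in aged 1 to aged 3 and 1.67, 2.99 and 2.59 CPM in young 4 to young 6. Every aged library lay above every young one. The log2 fold change was 1.1, or 2.14-fold, with a standard error of 0.33 and a 95% interval from 0.32 to 1.89 (edgeR, adjusted p = 0.101). In the alternatives it stayed between 0.84 and 1.27, and DESeq2 called it at an adjusted p of 0.0259 and limma-voom with quality weights at 0.02. The Hoxa3 interval in the deposited table spans those of Hoxa4, Hoxa5 and Hoxa6 and overlaps those of Hoxaas2 and Hoxaas3. In GENCODE M21, antisense genes cover 25.4% of the Hoxa3 exon bases, and the library kit does not mark strand. The annotation and counting mode behind the deposited counts are not given, so the part of such reads in the Hoxa3 count is unknown.

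Hoxa2 measured 2.78, 3.77 and 4.41 CPM in aged 1 to aged 3 and 1.91, 1.69 and 3.16 CPM in young 4 to young 6. The ages overlapped through aged 1, which lay below young 6. The log2 fold change was 0.69, with a 95% interval from -0.13 to 1.51 (edgeR, adjusted p = 0.259). It was 1.02 without young 6 and 0.51 without young 5. In GENCODE M21, the gene Gm28308 shares 15% of the Hoxa2 exon bases on the same strand. No other deposited interval of the cluster overlaps that of Hoxa2.

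Outside the 9 members, Hoxa13 had 0 counts in all 6 libraries.

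**Figure D3:**
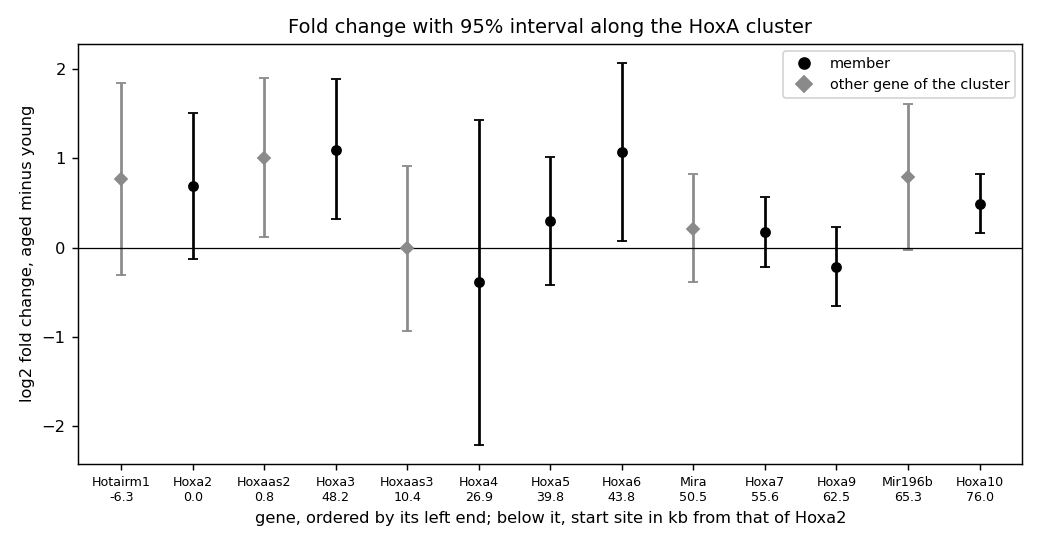
Log2 fold change, aged minus young, with its 95% interval for the tested members and noncoding genes of the cluster, ordered by their left end on chromosome 6 (black members, grey noncoding genes), with each start site in kb from that of Hoxa2 under the name. Among the members, the intervals of Hoxa3, Hoxa6 and Hoxa10 lie above 0, and no gene shown reached an adjusted p of 0.05.

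The noncoding genes of the cluster are transcribed among the members, several of them antisense. Of 8 in the table, 5 were tested and 0 were called by edgeR, with 1 higher at an unadjusted p under 0.05. Among all tested genes, 5.76% were called and 13.9% were higher at that unadjusted p. DESeq2 and limma-voom also called 0, and limma-voom with quality weights called 1, Hotairm1, at a log2 fold change of 1.45 and an adjusted p of 0.01. Hoxaas2, which overlaps Hoxa3, measured 1.15, 1.19 and 0.882 CPM in aged 1 to aged 3 and 0.398, 0.498 and 0.658 CPM in young 4 to young 6. Its ages did not overlap, and its log2 fold change was 1.01 with an adjusted p of 0.159 by edgeR. Reads on the Mir196b hairpin measured 3.21, 1.91 and 2.79 CPM in aged 1 to aged 3 and 1.75, 1.1 and 1.75 CPM in young 4 to young 6, with a log2 fold change of 0.79 and an adjusted p of 0.214. These reads lie in a Hoxa9 exon of GENCODE M21, outside the deposited Hoxa9 interval, and do not measure the mature miRNA shown above.

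Hotairm1, a transcript known from myeloid cells, had a log2 fold change of 0.77 and an adjusted p of 0.325. Mira, a noncoding gene between Hoxa6 and Hoxa7, was the most abundant of these, at 15.3, 19.9 and 27.3 CPM in aged 1 to aged 3 and 15.2, 19.1 and 19.6 CPM in young 4 to young 6. The ages overlapped, and the log2 fold change was 0.21 with an adjusted p of 0.615. Hoxaas3 measured 1.07 ± 0.18 CPM (aged) and 1.1 ± 0.421 CPM (young) (SD, n = 3 each). The untested Hoxa11os had 2, 6 and 20 counts in aged 1 to aged 3 and 0, 2 and 4 counts in young 4 to young 6.

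Of 10 genes that flank the cluster, 8 were tested and 1 was called, where 5.76% of all tested genes were. Creb5, which encodes a transcription factor of the ATF family and lies farther along the chromosome than Hoxa13, rose 12.2-fold. It measured 39, 14.9 and 14.7 CPM in aged 1 to aged 3 and 1.59, 2.09 and 1.88 CPM in young 4 to young 6, and all aged values were above all young ones. Its log2 fold change was 3.61, with a standard error of 0.47 (edgeR, adjusted p = 0.0143). Without aged 1, the highest library, the log2 fold change was 2.98 and the call held (adjusted p = 0.0119). The adjusted p was 0.0682 without young 5 and 0.0644 without young 6, at log2 fold changes of 3.7 and 3.61.

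The nearest tested neighbours on each side were not called. Skap2 had a log2 fold change of 0.03 (95% interval -0.35 to 0.41) and Hibadh one of -0.1 (-0.48 to 0.28). Snx10, Tax1bp1, Jazf1, Hnrnpa2b1 and Cbx3 had log2 fold changes of -0.07, 0.18, 0.34, -0.14 and -1.82. That of Cbx3 had an adjusted p of 0.196 by edgeR, and its level was 687 CPM in young 4 and 58.1 to 115 CPM in the other 5 libraries. Nfe2l3, not tested, had 10 to 13 counts in aged and 1 to 7 in young libraries.

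Of 28 genes of the HoxB, HoxC and HoxD clusters, 10 were tested, 6 rose and 0 fell, with a median log2 fold change of 2.75. In the HoxB cluster, 5 of 8 tested genes rose. Of all tested genes, 4.26% were called higher. Hoxb7, Hoxb8, Hoxb9 and Hoxc4 had 0 to 9 counts in each young library, against 21 to 135 in aged ones. Hoxb6 had 2, 12 and 14 counts in young 4 to young 6, against 100 to 189 in aged libraries. These genes passed the count filter through their aged libraries, so their entry into the test favours a rise, also in the median. Summed HoxB RNA stood at 83.6, 111 and 130 CPM in aged 1 to aged 3 and at 62.6, 49 and 49 CPM in young 4 to young 6. The counts of HoxB over those of the 9 HoxA members gave 0.36, 0.412 and 0.43 in aged 1 to aged 3 and 0.221, 0.199 and 0.199 in young 4 to young 6. This ratio differed by 0.96 on the log2 scale, with no overlap and a two-sided exact permutation p of 0.1, again the smallest that 3 against 3 libraries allow. It was chosen after the values had been seen. HoxD genes were at most at 4 counts in any library.

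The 4 called genes of these clusters with the smallest p were Hoxb6, Hoxb9, Hoxc4 and Hoxb7. All were low in young cells and passed the count filter through their aged libraries. Hoxb6 rose from 0.457 ± 0.258 to 7.35 ± 1.92 CPM and Hoxc4 from 0.294 ± 0.0872 to 3.77 ± 2.79 CPM (SD, n = 3 each). Their adjusted p-values by edgeR were 0.0106 and 0.0307. Aged 2 held the most Hoxc4, 6.97 CPM against 1.87 and 2.46 CPM in aged 1 and aged 3, and without aged 2 its log2 fold change went from 3.61 to 2.8 (adjusted p = 0.0603). Hoxb9 had 0, 4 and 0 counts and Hoxb7 had 0, 6 and 7 counts in young 4 to young 6, against 31 to 56 and 39 to 82 counts in aged libraries, with adjusted p-values of 0.0304 and 0.0371. The calls were sensitive to the libraries used. In place of 6, edgeR called 2 of these genes when aged 1 was left out, 1 for aged 2, 0 for aged 3, 0 for young 5 and 1 for young 6.

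The TALE cofactors with which HOXA9 binds DNA include Meis1, the commonest partner, at 1150 ± 202 (aged) and 1100 ± 177 CPM (young) (SD, n = 3 each). Its log2 fold change was 0.06, with a 95% interval from -0.46 to 0.59 (edgeR, adjusted p = 0.87). Of 8 tested cofactors, 2 rose and 0 fell, where 4.26% and 1.5% of all tested genes did. Their median log2 fold change was 0.08. Meis2 rose 3.87-fold, from 4.84 ± 1.68 to 18.6 ± 4.31 CPM, with an adjusted p of 0.0268 by edgeR (SD, n = 3 each). Meis3 rose 6.74-fold, from 2.17 ± 1.39 to 15 ± 4.24 CPM, with an adjusted p of 0.0321 by edgeR (SD, n = 3 each). Without 1 library, Meis2 had an adjusted p of 0.0801 (aged 2), 0.0984 (aged 3), 0.086 (young 5) and 0.0842 (young 6). Meis3 had adjusted p-values of 0.072, 0.0661 and 0.11 when aged 1, aged 2 or aged 3 was left out and of 0.0998 and 0.0515 for young 5 and young 6. Its log2 fold change was 3.34 without young 6, against 2.75.

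Genes reported as targets of HOXA9 numbered 16, of which 15 were tested, 1 rose and 2 fell, with a median log2 fold change of -0.14. Among all tested genes, 4.26% were called higher and 1.5% lower. Id2, an inhibitor of helix-loop-helix factors, rose 2.85-fold, from 13.4 ± 1.5 to 38.3 ± 9.64 CPM. Flt3, a receptor kinase of early lymphoid and myeloid progenitors, fell 2.37-fold, from 17.1 ± 4.4 to 7.24 ± 0.705 CPM. Cd34, a surface protein of progenitors, fell 1.73-fold, from 259 ± 22.6 to 150 ± 16.3 CPM (SD, n = 3 each). The adjusted p-values by edgeR were 0.0222, 0.0393 and 0.0426. Id2 lost its call without aged 2, aged 3, young 5 or young 6 (0.0786 to 0.0888), and Flt3 (0.0857 to 0.134) and Cd34 (0.0765 to 0.193) lost theirs without any library other than young 4. With no scaling between libraries, Flt3 had an adjusted p of 0.105 and Cd34 one of 0.141, and adjusted p-values of 0.0506 to 0.0574 ended the call of Id2 without young 4 and aged 2, of Flt3 at a minimum of 5 CPM, and of Cd34 at that minimum, with upper-quartile scaling or with GC content and length removed. The list count of 3 fell to 1 when aged 1 was left out and to 0 for each of aged 2, aged 3, young 5 and young 6.

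Regulators of the cluster were tested in 3 further groups. Of 20 activators (the MLL complex, menin, DOT1L, its partners and the CDX factors) 0 were called by edgeR, with 1 higher and 3 lower at an unadjusted p under 0.05. DESeq2 called 3, limma-voom with quality weights 8 and the fit with GC content and length removed 1. Over all tested genes, edgeR called 5.76%, DESeq2 16.3% and limma-voom with quality weights 30.5%. At an unadjusted p under 0.05 by edgeR, 13.9% were higher and 11.1% lower. Mllt3, which encodes the DOT1L partner AF9 protein, stood at 332 ± 84.7 (aged) and 234 ± 48.4 CPM (young) (SD, n = 3 each), with an adjusted p of 0.254. Psip1, which encodes the MLL tether LEDGF, stood at 114 ± 23 and 235 ± 131 CPM (SD, n = 3 each), with an adjusted p of 0.154. Its level was 386 CPM in young 4, against 160 and 159 CPM in young 5 and young 6.

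Of 30 Polycomb genes and related silencers, 0 were called by edgeR, with 4 higher and 6 lower at an unadjusted p under 0.05 and a median log2 fold change of -0.02. DESeq2 called 6, limma-voom with quality weights 8, and edgeR called 4 without young 4 and aged 2 together and 1 without young 4 alone. DESeq2 and limma-voom with quality weights called 16.3% and 30.5% of all tested genes. The most abundant were Rbbp7, at 717 ± 148 (aged) and 1070 ± 505 CPM (young), and Mtf2, at 226 ± 33.2 and 357 ± 144 CPM (SD, n = 3 each). Their young means leaned on young 4, at 1650 and 524 CPM. Young 5 and young 6 had 778 and 783 CPM of Rbbp7 and 278 and 270 CPM of Mtf2. Both are parts of Polycomb complex assemblies, and their adjusted p-values were 0.328 and 0.216. The alternative methyltransferases of that complex, chosen here after their values were seen, had opposite signs. Ezh1 stood at 123 ± 29.9 (aged) and 37.4 ± 17.9 CPM (young), and Ezh2 at 56 ± 13.3 and 162 ± 103 CPM (SD, n = 3 each). Young 4 lay farthest from the aged libraries for both, at 16.9 CPM of Ezh1 and 282 CPM of Ezh2. Young 5 and young 6 had 45.9 and 49.4 CPM of Ezh1 and 108 and 97.8 CPM of Ezh2. Neither passed the test (edgeR, adjusted p = 0.0581 and 0.0858), and the ages did not overlap for either.

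CTCF and cohesin, which fold the cluster into loops, gave 0 of 10 called by edgeR, with 0 higher and 4 lower at an unadjusted p under 0.05. Over all tested genes, 13.9% were higher and 11.1% lower at that p. All 10 log2 fold changes were below 0, with a median of -0.38. Among all tested genes, 52.7% were above 0 and the median was 0.04. Of the 10, 3 were called lower by DESeq2 and 4 by limma-voom with quality weights. These tools called 16.3% and 30.5% of all tested genes in either direction. The edgeR fit without young 4 called 1. Smc1a, a cohesin ring subunit, stood at 407 ± 33 (aged) and 433 ± 91.8 CPM (young), and Wapl, which releases cohesin, at 287 ± 80 and 411 ± 209 CPM (SD, n = 3 each). For both genes young 4 was the highest library, at 539 and 652 CPM. Young 5 and young 6 had 379 and 380 CPM of Smc1a and 290 and 291 CPM of Wapl, and the ages overlapped.

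Over the 6 libraries, the tested genes whose pattern was most like that of Hoxa9 were Bloc1s5, Eml4 and Csnk2a1. The root mean square differences of their centred log2 CPM from Hoxa9 were 0.0258, 0.0289 and 0.0364. Bloc1s5 stood at 37.5 ± 5.35 (aged) and 44.5 ± 7.45 CPM (young) (SD, n = 3 each). The likeness rests on 6 libraries and is a description only.

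**Figure D4:**
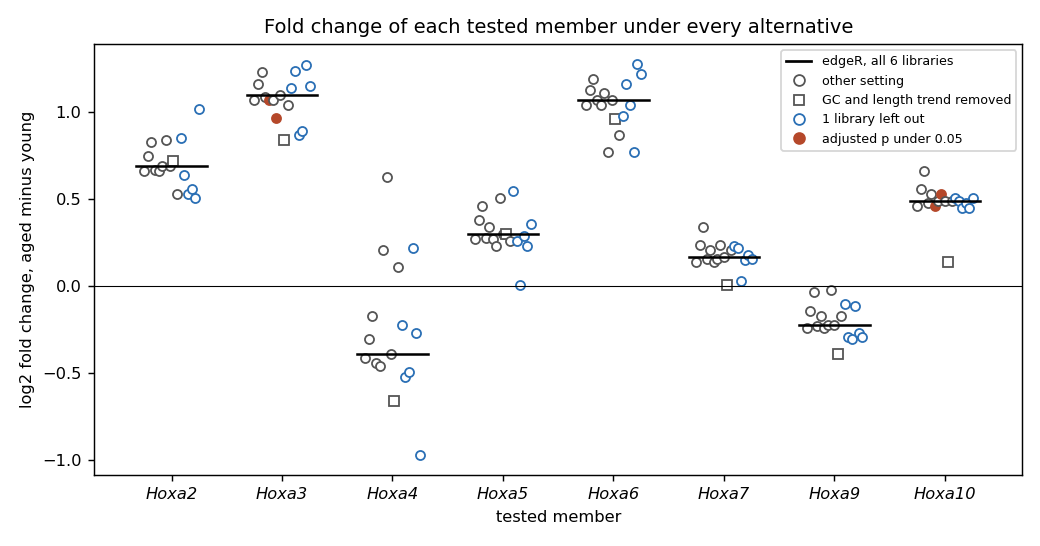
Log2 fold change, aged minus young, of each of the 8 tested members under every alternative tried, with a black bar for edgeR on all 6 libraries, blue circles for fits with 1 library left out, a square for the fit with the GC content and length trend removed, and red points where the adjusted p was under 0.05. The red points are those of Hoxa3 and Hoxa10 by DESeq2 and limma-voom with quality weights, and Hoxa4 has values on both sides of 0.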

How the data were processed

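The authors deposited 1 table of whole-number read counts per gene for 6 libraries, with coordinates and a gene length in kb; the counts carry no scaling. Per the labels, total RNA was amplified as full-length cDNA by SMART-Seq v4, a kit that does not mark strand, and single reads of 51 cycles were taken on an Illumina HiSeq. The submitters' processing notes name HTSeq 0.11.1, STAR 2.6.0, edgeR and Trimmomatic, and the build mm10. Which annotation and counting mode were used is not given in the sources here.

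Groups came from the sample titles. The ages were compared by the quasi-likelihood test of edgeR 4.0.16 (R 4.3.3; TMM scaling after filterByExpr, age as the only term, all 6 libraries). P-values were adjusted by Benjamini-Hochberg over 13413 genes, with 0.05 as the threshold. Fold changes are aged minus young. Limits for counts of 0 cover counting error only. The fit was tested on simulated data. Alternatives used other scalings and filters, DESeq2 1.42.0, limma 3.58.1 (voom), a robust fit, a correction of every library for GC content and length (splines, 4 degrees of freedom, GC content for 98% of tested genes from GENCODE M21) and fewer libraries.

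Members and gene lists were chosen with earlier results of these data known. All 9 members are named, with the 3 genes most like Hoxa9, noncoding and flanking genes with at least 10 counts, and of each other list up to 4 called genes with the smallest p or, with none called, up to 2 with the highest mean CPM. Kit, Slamf1, Ly6a, Procr, Cd48, Cxcl12, Col1a1, Bglap, Pdgfrb, Lepr, Prrx1, Cdh5, Actb, Hoxa13, Meis1, Ezh1 and Ezh2 were added outside this rule.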

Additional observations from a re-analysis of the deposited data

How the results depend on the processing

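No paired analysis was possible because aged libraries are numbered 1 to 3 and young ones 4 to 6, so no number is shared. The number of genes called, 772 in all, was 443 at 5 CPM in 3 libraries, 2181 by DESeq2, 4094 by limma-voom with quality weights and 1365 with the GC content and length trend removed, and 74 (without young 5) to 1029 (without young 4) with 1 library left out. The share of calls that were higher was 74%, and 80.2% with no scaling, 64.7% with no filter, 57.5% by DESeq2, 56.8% with quality weights and 50.3% with the GC content and length trend removed. The median log2 fold change of all genes, 0.04, was 0.2 with no scaling, 0.106 with upper-quartile scaling, 0.268 with no filter, where more genes were tested, and -0.082 with the GC content and length trend removed. Members called numbered 2 by DESeq2 and 2 with quality weights, and 0 in each fit with 1 library left out; Hoxa2, Hoxa3, Hoxa4 and Hoxa6 dropped out at 5 CPM. By CPM, 5 of 9 members held their place in the order per kb. Hoxa4 turned to 0.21 by limma-voom, 0.63 with quality weights, 0.11 without young 4 and aged 2 together and 0.22 without young 4, and ran from -0.97 to 0.22 with 1 library left out. Hoxaas3, at -0.01, turned to 0.07 (upper quartile), 0.19 (no scaling), 0.05 (limma-voom), 0.21 (quality weights), 0.27 (GC content and length), 0.17 (without young 4 and aged 2 together), 0.11 (without aged 3) and 0.29 (without young 4), from -0.18 to 0.29 with 1 library left out, and Mira to -0.03 without aged 3, from -0.03 to 0.39. Called genes among CTCF and cohesin, 0, numbered 3 by DESeq2, 4 with quality weights, 2 with GC content and length removed, 1 without young 4 and aged 2 together and 0 to 1 with 1 library left out. Activators, 0, numbered 3, 8 and 1 in the first 3 of these. Polycomb genes, 0, numbered 2 with no filter, 6 by DESeq2, 8 with quality weights, 3 with GC content and length removed, 4 without young 4 and aged 2 together and 0 to 1 with 1 library left out. Flanking genes, 1, numbered 3 and noncoding genes, 0, numbered 1 with quality weights; the flanking count was 0 to 1 with 1 library left out. Other Hox genes, 6, numbered 2 at 5 CPM, 10 with quality weights, 3 without young 4 and aged 2 together and 0 to 5 with 1 library left out. Reported HOXA9 targets, 3, numbered 1 with no scaling, 5 with no filter, 1 at 5 CPM, 8 by DESeq2, 9 with quality weights, 5 with GC content and length removed and 0 to 3 with 1 library left out, and TALE cofactors, 2, 0 to 3. The cause of these changes was not tested. Depth limits Hoxa4, Hoxa6 and Hoxa11, with at most 33 counts in any library.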
